A study of Mus musculus with 9 samples.

Results

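Saa3, the gene of serum amyloid A3, was followed across 9 RNA sequencing libraries of BV2, a mouse microglial line kept in culture by immortalization. It is 1 gene (ENSMUSG00000040026) of the 55906 in the authors' deposited table. It was selected on its measured TPM, because its level was higher with LPS (lipopolysaccharide, the outer membrane component of Gram-negative bacteria) than in Control, and higher again when a treatment named Pilo was added. Those values chose the gene, so its own levels are given as a description and carry no p-value. There were 3 libraries of cells given LPS and Pilo together (LPS+Pilo), 3 of cells given LPS alone, and 3 of Control cells, whose treatment label names no agent. Every library came from BV2 cells with the genotype label wildtype. A single immortalized line limits how far the values stand for microglia in tissue. The sources used here do not say what Pilo stands for, nor the doses and durations of both agents. The replicates are labelled biological, but nothing says that they came from separate cultures, so the p-values measure the spread between these libraries, which may be technical.

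Serum amyloid A proteins are small acute-phase apolipoproteins that circulate on high-density lipoprotein, and the liver releases Saa1 and Saa2 in large amounts during infection or injury. Mouse Saa3 is the member made mainly outside the liver, by macrophages, adipocytes and epithelia, and LPS is a classical inducer of it. Its transcription in mouse cells depends on C/EBP factors and on NF-κB signalling, and the proteins act on cells through receptors such as Fpr2 and Tlr2.

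The stretch of 250 bases before the RefSeq start of Saa3 on chromosome 7 is shown beside those of the liver-type genes Saa1 and Saa2, because Saa3 was the only one of the 3 at or above 1 TPM in any library. TPM express a gene's transcripts, corrected for length, as a share of the library, with the same total in every library. The sequences are from RefSeq on GRCm38.p6 and are written 5′ to 3′ on the gene's own strand. They cover chr7:46715677-46715926 on the minus strand for Saa3, chr7:46742981-46743230 on the minus strand for Saa1 and chr7:46751583-46751832 on the plus strand for Saa2. Capitals mark matches to the C/EBP motif TTNNGNAAN or the broad NF-κB motif (GGG, then 5 bases of any kind, then CC), searched on both strands.
Saa3: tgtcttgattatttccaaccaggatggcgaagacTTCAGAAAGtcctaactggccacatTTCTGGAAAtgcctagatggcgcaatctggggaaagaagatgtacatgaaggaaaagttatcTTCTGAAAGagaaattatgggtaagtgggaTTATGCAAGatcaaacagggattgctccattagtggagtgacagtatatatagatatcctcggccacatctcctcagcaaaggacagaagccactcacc
Saa1: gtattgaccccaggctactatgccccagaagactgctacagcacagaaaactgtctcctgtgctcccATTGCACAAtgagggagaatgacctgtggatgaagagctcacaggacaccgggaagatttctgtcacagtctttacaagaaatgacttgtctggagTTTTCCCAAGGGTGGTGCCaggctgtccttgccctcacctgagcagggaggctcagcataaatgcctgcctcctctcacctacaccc
Saa2: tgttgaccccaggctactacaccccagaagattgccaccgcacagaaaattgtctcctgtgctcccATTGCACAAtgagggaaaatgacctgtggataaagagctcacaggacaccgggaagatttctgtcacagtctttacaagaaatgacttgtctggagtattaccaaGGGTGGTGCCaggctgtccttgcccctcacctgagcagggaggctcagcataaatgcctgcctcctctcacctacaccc
The Saa3 stretch held 4 C/EBP matches and no match to the broad NF-κB motif. The match nearest the start, TTATGCAAG, ran from base -99 to base -91. Saa1 held 2 C/EBP matches and 1 broad NF-κB match, and the C/EBP match nearest its start lies directly before the NF-κB match, so that both print as 1 run of capitals. Saa2 held 1 of each, and Saa4, whose stretch is not printed, held 2 and 1. The full RefSeq windows run from 250 bases before to 50 bases after the start, and over 32851 such windows 40.6% held at least 1 C/EBP match and 50.8% at least 1 broad NF-κB match. The Saa3 window also held no match to the AP-1 motif TGANTCA, the STAT motif TTCNNNGAA or the TATA motif TATAAA, which were found in 7.81%, 8.30% and 13.6% of windows. A match is only a string of letters, and no match says only that those letters are not in that window. The upstream stretches of Saa1 and Saa2 were 94.8% identical, and that of Saa3 was 48.9% identical to Saa1 and 48.0% identical to Saa2.

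Saa3 stood at 259, 277 and 273 TPM in the LPS+Pilo libraries, at 229, 196 and 182 TPM in the LPS libraries and at 6.16, 5.04 and 7.90 TPM in the Control libraries. Every LPS+Pilo library lay above every LPS library, and every LPS library lay above every Control library. The group means were 270 ± 9.75 TPM in LPS+Pilo, 202 ± 24.5 TPM in LPS and 6.37 ± 1.44 TPM in Control (SD, n = 3 each). Over the table as a whole, all libraries of a group lay above all of the other group for 5.58% of tested genes in LPS+Pilo with LPS, 11.2% in LPS with Control and 14.9% in LPS+Pilo with Control. These 3 comparisons share libraries, and the choice of Saa3 fixed its place in each.

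**Figure D1:**
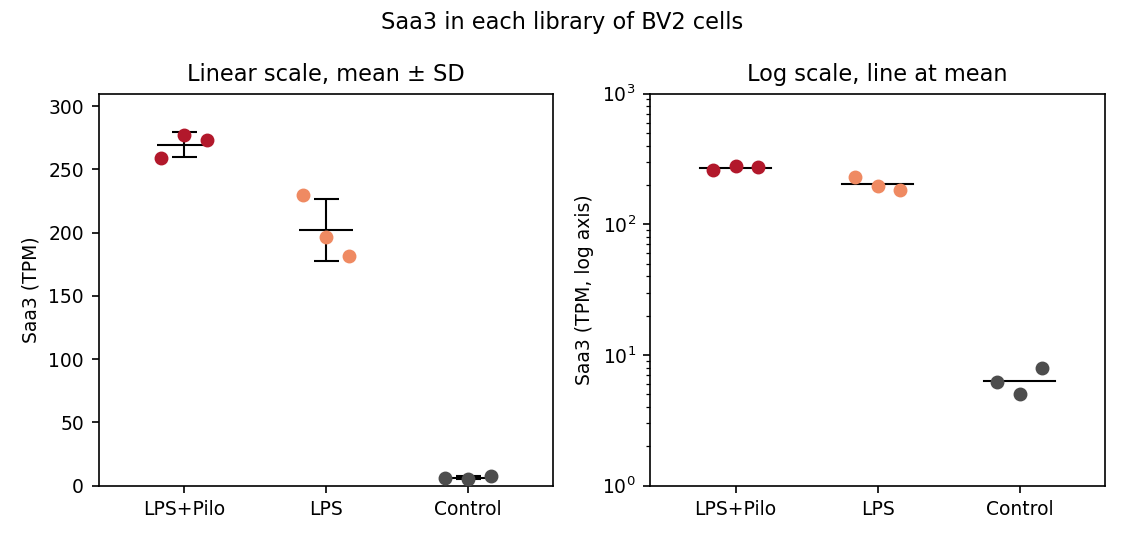
Saa3 in TPM in each of the 9 libraries, by group, on a linear axis with mean and SD bars and on a log axis with a line at the mean. The LPS+Pilo libraries sit between 259 and 277 TPM, the LPS libraries between 182 and 229 TPM and the Control libraries between 5.04 and 7.90 TPM.

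The step between LPS and Control was far larger than the step between LPS+Pilo and LPS. The mean Saa3 level in LPS was 31.8 times that in Control, and the lowest LPS library was 23.0 times the highest Control library. The mean in LPS+Pilo was 1.33 times that in LPS, and the lowest LPS+Pilo library was 1.13 times the highest LPS library. On the log2(TPM + 1) scale these differences were 4.80 for LPS with Control, 0.42 for LPS+Pilo with LPS and 5.22 for LPS+Pilo with Control. The gap between LPS+Pilo and LPS, 67.2 TPM between the means, compares with SDs of 9.75 TPM in LPS+Pilo and 24.5 TPM in LPS. Among the 11260 genes tested, the Saa3 difference ranked 4th from the top in LPS with Control, 3rd in LPS+Pilo with Control and 343rd in LPS+Pilo with LPS.

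The spread of Saa3 between replicates also differed between groups. Its coefficient of variation was 3.62% in LPS+Pilo, 12.1% in LPS and 22.6% in Control. Genes with a mean within 1.5 times that of Saa3 in the same group had median coefficients of 6.91% in LPS+Pilo (453 genes), 8.51% in LPS (554 genes) and 20.8% in Control (2042 genes). Of these genes, 15.7% varied less than Saa3 in LPS+Pilo, 67.9% did in LPS and 56.1% did in Control. In LPS, replicate 1 was the highest for Saa3 and replicate 3 the lowest, at 182 TPM. LPS replicate 3 was also the lowest of the LPS libraries for 66.3% of all genes tested, and its part in the Saa3 values was not tested. Without that library the difference between LPS+Pilo and LPS was 0.34 on the log2 scale, and without LPS replicate 1 it was 0.51.

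Saa3 took 0.0259%, 0.0277% and 0.0273% of all TPM in the LPS+Pilo libraries, 0.0230%, 0.0196% and 0.0182% in the LPS libraries and 0.000616%, 0.000504% and 0.000790% in the Control libraries. By TPM it ranked 575th to 606th of 55906 genes in LPS+Pilo, 692nd to 823rd in LPS and 6539th to 7535th in Control. Its mean in LPS+Pilo lay next to those of Psat1, an enzyme of serine synthesis (271 ± 30.8 TPM), and Aamp (269 ± 15.5 TPM). In LPS its neighbours were Eif3f, a subunit of a translation initiation factor (203 ± 12.3 TPM), and Dtymk, thymidylate kinase (202 ± 28.8 TPM). In Control they were Mgme1, a mitochondrial DNA exonuclease (6.37 ± 1.12 TPM), and Fam213a (6.37 ± 0.471 TPM; SD, n = 3 for each). None of these pairs differed from Saa3 by more than their SD.

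The other serum amyloid A genes were at or close to 0. Saa1, Saa2 and the pseudogene Saa-ps were listed at 0 TPM in all 9 libraries, and Saa4, the constitutive member, at 0 in all but LPS+Pilo replicate 2, where it was 0.04 TPM. With no read counts in the file, no detection limit can be set for these zeros. RefSeq lists the names Saa1 and Saa2 as synonyms of one another in the mouse, so either row may stand for either protein. The Saa3 transcript model has 4 exons and 555 bases, of which 366 code for 122 residues. Its coding sequence was 75.7% identical to that of Saa1, 74.7% to that of Saa2 and 63.5% to that of Saa4. Of the 506 stretches of 50 bases in the Saa3 transcript, 9 (1.78%) also occur in another gene's transcripts, all of them in Saa1. For Saa1 the share was 14.8% of 560 stretches, most of them shared with Saa2. The sources used here do not say how reads that match several genes were treated.

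The libraries held markers of the labelled cell type, with gaps. Of 16 microglia and macrophage markers, 12 reached 1 TPM in all 9 libraries. The others, named for their level alone, were Aif1 (0.07 to 1.36 TPM), C1qa (0 to 1.28 TPM), P2ry12 (0 to 0.4 TPM) and Sall1 (0 to 0.01 TPM). Cd68, a lysosomal marker of phagocytes, stood between 976 and 1219 TPM. The summed level of the 16 was 2343 to 2428 TPM in LPS+Pilo, 2702 to 2837 TPM in LPS and 3366 to 3721 TPM in Control, an order opposite to that of Saa3. Cd68, Tyrobp and Trem2 made up 84.0% of the Control sum. The means of 10 of the 16 followed the order of the sum, and that of Tmem119 followed the order of Saa3. A higher mean in LPS than in Control was found for 5, which were Tmem119, Itgam, Fcgr1, Adgre1 and Ptprc. The part of these markers in the Saa3 values was not tested. Among the cells known to make serum amyloid A, 5 of 6 hepatocyte markers were listed at 0 everywhere, all 7 neutrophil markers and all 4 epithelial markers stayed under 1 TPM, and of 5 adipocyte markers only Fabp4, which macrophages also express, reached 1 TPM. In bulk samples, fewer cells of a type and less RNA per cell cannot be told apart. Between 10726 and 11123 genes reached 1 TPM in each library, and libraries of 1 group correlated at 0.971 to 0.986 (Pearson r of log2 values).

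The genes around Saa3 on its chromosome were measured to see whether its neighbours moved with it. The RefSeq table lists 33 other genes within 500 kb of the Saa3 start, apart from Saa1, Saa2 and Saa4. Of these, 26 were in the authors' table and 9 passed the filter of at least 1 TPM in at least 3 libraries. None of the 9 was called in any of the 3 comparisons (limma, Benjamini-Hochberg adjusted p under 0.05), where 7.76% of all tested genes were called in LPS with Control, 0.0444% in LPS+Pilo with LPS and 10.2% in LPS+Pilo with Control. At these shares a count of 0 among 9 genes does not set them apart from other genes. At an unadjusted p under 0.05, 2 of the 9 differed in LPS with Control, none in LPS+Pilo with LPS and 1 in LPS+Pilo with Control, beside 22.7%, 6.76% and 24.0% of all tested genes. That last comparison gave 1 call under quantile normalization, under median-ratio scaling and without Control replicate 1. The closest tested neighbour, Saal1, is named for its likeness to serum amyloid A but is not a member of the family. It stood at 14.3 ± 0.817 TPM in LPS+Pilo, 14.9 ± 0.790 TPM in LPS and 15.3 ± 1.12 TPM in Control (SD, n = 3 each), with groups that overlapped throughout.

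Genes that are induced with serum amyloid A in the acute phase were compared with Saa3. Of 39 other acute-phase genes, 8 passed the filter, and 6 of these were called higher in LPS than in Control, none lower. In that comparison 7.76% of all tested genes were called, 4.12% higher and 3.64% lower, which is 464 and 410 genes (limma, Benjamini-Hochberg adjusted p under 0.05). Quantile normalization gave 614 higher and 902 lower. The median log2 fold change of the 8 was 1.47, against 0.07 over all tested genes. The other 31 reached at most 0.85 TPM in any library, and 20 of them were listed at 0 throughout. Of the 8, Lcn2 and Serpina3g stayed under 1 TPM in every Control library. They passed the filter only through treated libraries, which largely fixed their direction.

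Lcn2, which encodes a protein that sequesters bacterial siderophores, had the mean TPM closest to that of Saa3 in LPS among the 8. It stood at 242, 226 and 228 TPM in LPS+Pilo, at 256, 172 and 154 TPM in LPS and at 0.21, 0.15 and 0.22 TPM in Control. It was higher in LPS than in Control by 7.32 ± 0.16 on the log2 scale (SE; limma, adjusted p = 2.47e-08), while LPS+Pilo and LPS overlapped (0.29 ± 0.16, adjusted p = 0.793). The Control values set the genes apart, since the ratio of Saa3 to Lcn2 TPM within a library was 1.07 to 1.23 in LPS+Pilo, 0.898 to 1.18 in LPS and 29.3 to 35.9 in Control. These ratios were chosen after the values were seen and do not depend on how a library is scaled as a whole.

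Haptoglobin (Hp), a haemoglobin scavenger, had a different order from Saa3. Its values were 22.4, 23.0 and 25 TPM in LPS+Pilo, 38.6, 33.0 and 37.2 TPM in LPS and 12, 9.70 and 14.1 TPM in Control. All LPS+Pilo libraries lay between those of LPS and Control. The log2 fold change was 1.54 ± 0.14 for LPS with Control (SE; limma, adjusted p = 0.000137) and -0.61 ± 0.14 for LPS+Pilo with LPS, which was not called (adjusted p = 0.321). Il1rn, the interleukin-1 receptor antagonist, and C3, the central complement component, rose with LPS by 2.96 ± 0.19 and 1.57 ± 0.24 on the log2 scale (SE; limma, adjusted p = 1.91e-05 and 0.00374). The remaining calls were Serpina3g, a serine protease inhibitor, and Slc39a14, a zinc transporter, both named after their values were seen. The Serpina3g call held in all 16 alternatives that tested it, while the Slc39a14 call (adjusted p = 0.0483) was lost in 10 of 17 alternatives. Among these were the fits without LPS replicate 1 (adjusted p = 0.153) or 2 (0.171), Control replicate 2 (0.119) or 3 (0.185), or LPS+Pilo replicate 1 (0.0775), 2 (0.0787) or 3 (0.0830). The metallothioneins Mt1 and Mt2, inducible metal-binding proteins, were not called, at -0.23 ± 0.11 and -0.09 ± 0.09 (adjusted p = 0.238 and 0.614). Of 8 negative acute-phase genes, which the liver lowers in inflammation, 3 passed the filter and none was called in LPS with Control by limma. None of the 3 had an unadjusted p under 0.05 in limma either. The shares over all tested genes were 7.76% and 22.7%, so 0 of 3 does not set these genes apart. Without LPS replicate 3, 1 of the 3 was called.

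**Figure D2:**
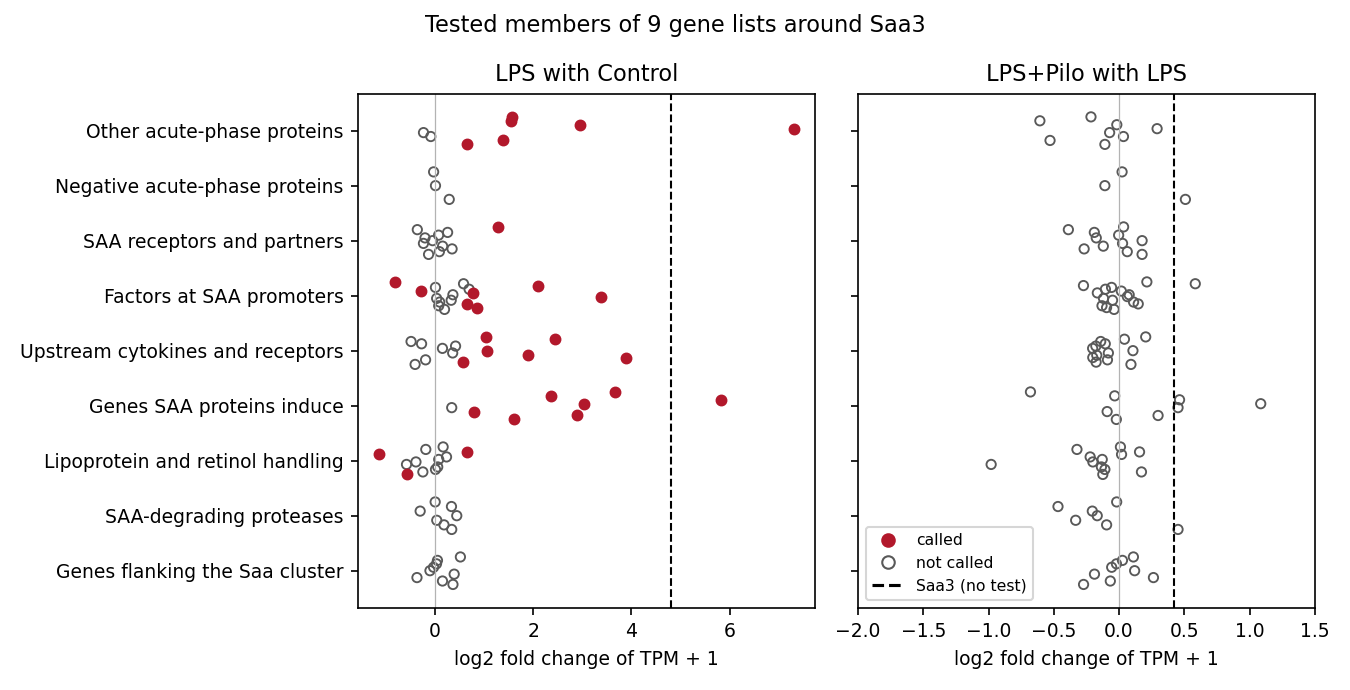
Log2 fold change of TPM + 1 of each tested member of 9 gene lists, for LPS with Control and for LPS+Pilo with LPS. Each point is 1 gene, filled where its adjusted p in limma was under 0.05, and the dashed line marks Saa3, at 4.80 and 0.42. Filled points occur in LPS with Control, where 7.76% of all tested genes were called. None occurs in LPS+Pilo with LPS, where 0.0444% of all tested genes were called.

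Factors known to act at serum amyloid A promoters were measured beside Saa3. Of 18 genes, 16 passed the filter, with 5 called higher and 2 lower in LPS than in Control and a median log2 fold change of 0.35, against 0.07 for all genes. Over all tested genes, 4.12% were called higher and 3.64% lower. Nfkbiz, the inducible NF-κB cofactor IκBζ, rose by 3.39 ± 0.26 (SE; limma, adjusted p = 5.81e-05). Cebpd, the C/EBP member known for its induction in the acute phase, stood at 39.5, 41.0 and 45.9 TPM in LPS+Pilo, at 59.5, 50.5 and 44.2 TPM in LPS and at 11.7, 10.9 and 10.9 TPM in Control. It rose with LPS by 2.10 ± 0.12 (SE; limma, adjusted p = 9.62e-06), and LPS+Pilo and LPS overlapped (-0.27 ± 0.12, adjusted p = 0.731). Stat3, which relays interleukin-6 signals, rose by 0.85 ± 0.18, and Cebpa, the C/EBP member of resting cells, fell by 0.82 ± 0.15 (SE; limma, adjusted p = 0.0210 and 0.0109). The NF-κB subunits Nfkb1 and Relb were the other two called higher and Maz, a zinc finger factor, the other called lower, named after their values were seen. Their calls were not stable, and were lost in 8 (Nfkb1), 4 (Relb) and 13 (Maz) of 17 alternatives, with adjusted p up to 0.120, 0.0661 and 0.162. Each of these calls was lost without LPS replicate 1 or 2 or Control replicate 2 or 3. The Stat3 call was lost without LPS replicate 1 (adjusted p = 0.0762), LPS replicate 2 (0.0703), Control replicate 2 (0.0561) or Control replicate 3 (0.0651), and the Cebpa call without Control replicate 3 (0.0571). The number of factors called was 3 without LPS replicate 1, LPS replicate 2 or Control replicate 2, and 2 without Control replicate 3.

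Cebpb, which with Cebpd drives serum amyloid A genes in mouse liver and macrophages, had the same order of group means as Saa3. It stood at 210, 271 and 193 TPM in LPS+Pilo, at 180, 168 and 107 TPM in LPS and at 112, 79.3 and 108 TPM in Control. LPS replicate 3 lay within the Control range, whereas all LPS+Pilo libraries were above all LPS libraries. Of the 16 tested factors 1, Cebpb, had this separation, a share close to the 5.58% of all tested genes. The log2 fold change was 0.58 ± 0.21 for LPS with Control and 0.58 ± 0.21 for LPS+Pilo with LPS, and neither was called (SE; limma, adjusted p = 0.145 and 0.599). Without LPS replicate 3 the change with LPS was 0.81 and was called (adjusted p = 0.0274), and over the alternatives its adjusted p ran from 0.0274 to 0.371. LPS+Pilo exceeded Control by 1.17 ± 0.21 (SE; limma, adjusted p = 0.00829).

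Several cytokines known to induce serum amyloid A, and some of their signalling genes, were called higher with LPS. Of 22 genes in this list, 13 passed the filter, and 6 were called higher and none lower in LPS than in Control. The shares over all tested genes were 4.12% higher and 3.64% lower. The median log2 fold change of the 13 was 0.42, against 0.07 over all tested genes. Il6 and Il1b stayed under 1 TPM in every Control library and passed the filter only through treated libraries, which largely fixed their direction. Tnf rose by 3.90 ± 0.10, Il6 by 2.44 ± 0.28, and Socs3, the feedback inhibitor of interleukin-6 signalling, by 1.89 ± 0.16 (SE; limma, adjusted p = 2.92e-08, 0.000765 and 0.000123). Osm, an interleukin-6 family cytokine, rose by 1.05 ± 0.17, and Il1b by 1.03 ± 0.25 (SE; limma, adjusted p = 0.00591 and 0.0366). Il1b was low, at 2.97, 1.03 and 1.31 TPM in LPS+Pilo, 1.49, 1.35 and 1.08 TPM in LPS and 0.37, 0.04 and 0 TPM in Control. Its call was lost without LPS replicate 1 (adjusted p = 0.113), LPS replicate 2 (0.106), LPS+Pilo replicate 3 (0.0546), Control replicate 2 (0.105) or Control replicate 3 (0.138). The remaining call, named after its values were seen, was the TNF receptor Tnfrsf1b. That call was lost without LPS replicate 1 (adjusted p = 0.0526), LPS replicate 2 (0.0580) or Control replicate 2 (0.0531). The 9 members that did not pass the filter reached at most 1.34 TPM in any library. Among them were the receptor genes Osmr, listed at 0 throughout, Il1r1 (at most 0.29 TPM) and Lifr (at most 0.04 TPM). The receptor genes Il6ra, Il6st and Tnfrsf1a passed it, and all of these are named for their level alone.

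Receptors for serum amyloid A were present only in part. Of 16 receptors and binding partners 11 passed the filter, and 1, the LPS co-receptor Cd14, was called in LPS with Control, a share close to the 7.76% of all tested genes. Cd14 had 334, 318 and 325 TPM in LPS+Pilo, 393, 319 and 256 TPM in LPS and 149, 114 and 131 TPM in Control, and rose with LPS by 1.28 ± 0.15 (SE; limma, adjusted p = 0.000816). Tlr2 stood at 12.5 to 15.8 TPM in LPS+Pilo, 14.7 to 19.9 TPM in LPS and 10.9 to 18.0 TPM in Control, and Tlr4, the LPS receptor, at 1.79 to 2.22, 1.37 to 3.06 and 1.52 to 2.08 TPM in the same order of groups. Neither was called, at 0.35 ± 0.19 and 0.09 ± 0.21 in LPS with Control (SE; limma, adjusted p = 0.313 and 0.836). The formyl peptide receptor genes Fpr1 and Fpr2 were among the 5 that did not pass the filter, which reached at most 0.24 TPM in any library. A second member was called under quantile normalization and under median-ratio scaling.

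Genes that serum amyloid A proteins are known to induce in myeloid cells are for the most part direct targets of LPS as well. Of 13, 8 passed the filter and 7 were called higher in LPS than in Control, beside 4.12% of all tested genes. The median log2 fold change of the 8 was 2.63, against 0.07 over all tested genes. Csf3, Cxcl2, Nos2, Ptgs2 and Mmp9 stayed under 1 TPM in every Control library and passed the filter only through treated libraries. The filter thus largely fixed their direction, so this count and median are a description. Ptgs2 and Mmp9 are named for this alone. Csf3, the granulocyte colony-stimulating factor, stood at 73.9, 80.7 and 77.3 TPM in LPS+Pilo and at 90.5, 49.8 and 38.3 TPM in LPS, and every Control library listed it at 0. Cxcl2, a chemokine for neutrophils, had 18.0, 19.7 and 18.5 TPM in LPS+Pilo, 15.5, 7.93 and 4.47 TPM in LPS and 0.27, 0.05 and 0.11 TPM in Control. Like Saa3 it had no overlap between LPS+Pilo and LPS, and LPS replicate 1 lay closest to the LPS+Pilo libraries. It rose with LPS by 3.03 ± 0.32 (SE; limma, adjusted p = 0.000496), and the difference of 1.09 ± 0.32 between LPS+Pilo and LPS was not called (adjusted p = 0.502). Ccl2, a monocyte chemokine, rose by 3.66 ± 0.12, and Nos2, the inducible nitric oxide synthase, by 2.90 ± 0.33 (SE; limma, adjusted p = 1.40e-07 and 0.000728).

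**Figure D3:**
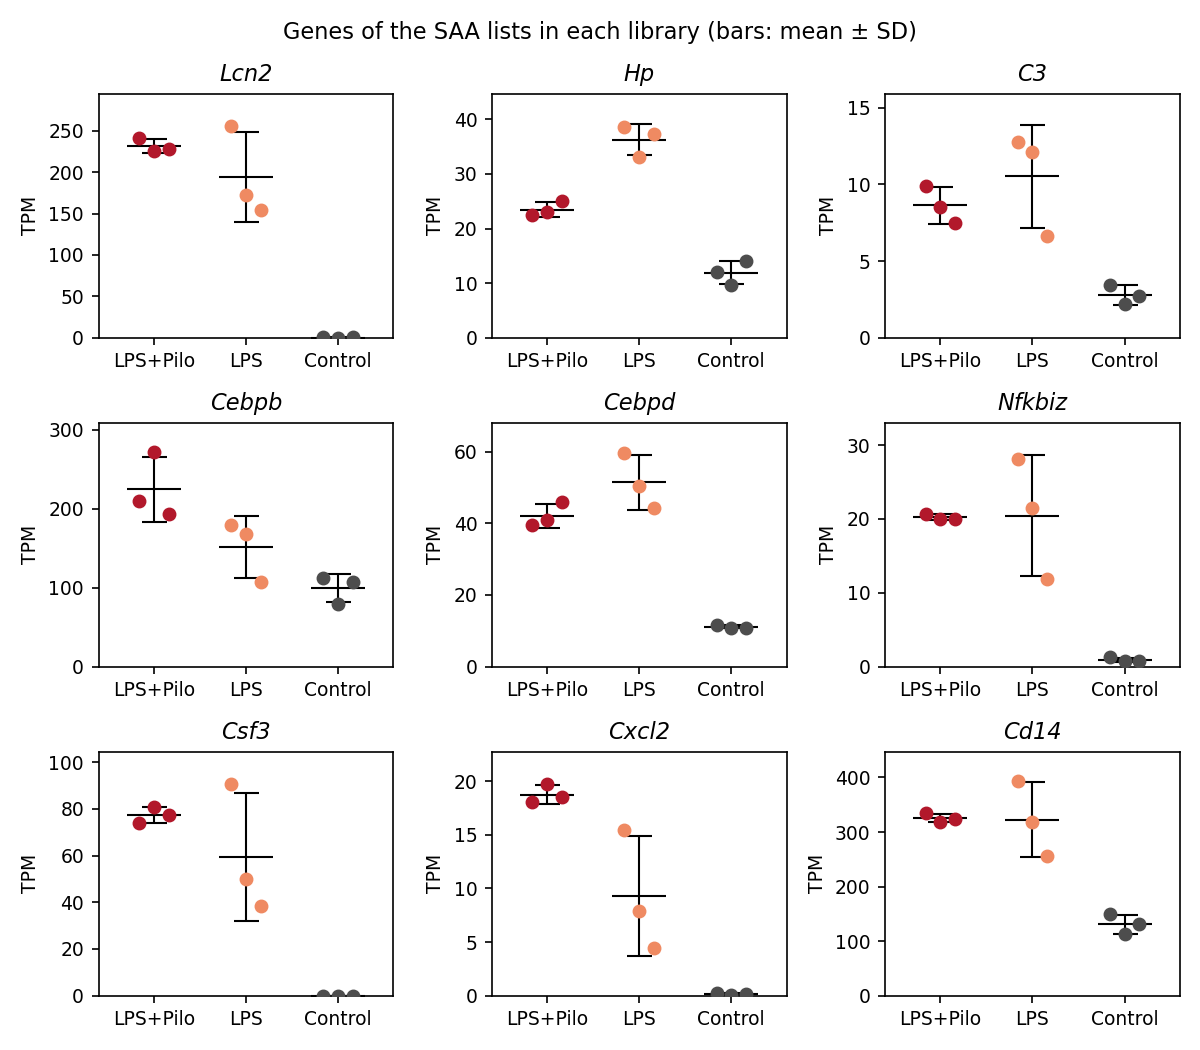
TPM in each library for 9 genes of the lists, by group, with mean and SD bars and each axis starting at 0. Cebpb and Cxcl2 show all LPS+Pilo libraries above all LPS libraries, and Hp shows all LPS+Pilo libraries between those of LPS and Control. Over all tested genes, 5.58% had every LPS+Pilo library above every LPS library.

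Of 22 genes of lipoprotein and retinol handling, 12 passed the filter, with 1 called higher and 2 lower in LPS than in Control, beside 4.12% and 3.64% of all tested genes. Apoe, the main apolipoprotein of microglia, fell by 1.14 ± 0.08 (SE; limma, adjusted p = 3.35e-05). Apoc2, a lipoprotein lipase cofactor, rose by 0.65 ± 0.15 and Rxra, a retinoid receptor, fell by 0.58 ± 0.13 (SE; limma, adjusted p = 0.0284 and 0.0272), but leaving out 1 library ended the Apoc2 call for 8 of the 9 libraries and the Rxra call for 5. The list held 1 call without LPS replicate 2 or 3 or Control replicate 1 or 2. Of 12 proteases that cut serum amyloid A, 7 passed the filter and none was called in LPS with Control by limma, beside 7.76% of all tested genes, too small a share for 0 of 7 to set them apart. At an unadjusted p under 0.05, 2 were higher and 1 lower, beside 12.3% and 10.4% of all tested genes. There was 1 call higher without LPS replicate 3 or Control replicate 1, under median-ratio scaling and with the replicate block, and 1 call lower with a pseudocount of 0.1 or a filter at 5 TPM.

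In LPS+Pilo with LPS, limma called 5 of the 11260 genes (0.0444%), 0.00888% of them higher and 0.0355% lower, and none of them belonged to any of these lists. At an unadjusted p under 0.05, 761 genes (6.76%) differed. The 5 were Hspb7, Igf1, Plau and 2 entries without a symbol. Without any 1 LPS+Pilo library or LPS replicate 3 the count was 0, and without LPS replicate 1 or 2 it was 1. The other genes called higher in LPS with Control were sorted by whether LPS+Pilo and LPS overlapped, a count made after the values were seen, and the comparisons share the LPS libraries. Saa3 is left out of it, because its place in it was the reason for choosing the gene. Of 463 genes, 37 had every LPS+Pilo library above every LPS library, 71 had every one below, and 355 overlapped. Of the 44 with a log2 rise of at least 2, Cxcl2 and Tmem171 were the 2 with LPS+Pilo above, 9 had LPS+Pilo below and 33 overlapped. Over all tested genes, 5.58% had every LPS+Pilo library above LPS and 6.63% below. Tmem171, a membrane protein, had 14.1 ± 0.810 TPM in LPS+Pilo, 12.4 ± 0.951 TPM in LPS and 2.22 ± 0.578 TPM in Control (SD, n = 3 each).

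In LPS+Pilo with Control, 10.2% of tested genes were called, 4.85% higher and 5.30% lower (limma, Benjamini-Hochberg adjusted p under 0.05). The lists gave 5 calls higher among the 8 acute-phase genes, 5 higher and 1 lower among the 16 promoter factors, 5 higher among the 13 upstream genes and 7 higher among the 8 genes induced by serum amyloid A. There were also 1 call higher and 3 lower among the 12 lipoprotein and retinol genes, 1 higher and 1 lower among the 11 receptors and partners, 1 higher and 1 lower among the 7 proteases, 1 higher among the 3 negative acute-phase genes and none among the 9 flanking genes. Receptors and proteases had 1 call each without any 1 LPS+Pilo library or Control replicate 3, and receptors also without Control replicate 1. The protease called higher was Mmp9, named after its values were seen and also counted among the genes induced by serum amyloid A. It reached 1 TPM only in the LPS+Pilo libraries, so without any 1 of them it was not tested. The limit given above for genes under 1 TPM in every Control library holds for these list counts as well. Lcn2 exceeded Control by 7.61 ± 0.16 and Hp by 0.93 ± 0.14 (SE; limma, adjusted p = 1.70e-08 and 0.00264). Transferrin (Trf), an iron carrier and negative acute-phase protein, was called here, with 127, 122 and 125 TPM in LPS+Pilo, 99.1, 95.7 and 70.1 TPM in LPS and 76.7, 61.3 and 76.9 TPM in Control. It was named after its values were seen.

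The genes whose profile over the 9 libraries was most like that of Saa3 were ranked by the root mean square difference in log2(TPM + 1), each gene set to its own Control mean, over 7868 genes with a symbol and at least 5 TPM in their highest group. In order they were Ccl7 (0.57), Csf3 (0.89), Tnf (1.04), Acod1 (1.15), Cxcl2 (1.25), Pilrb1 (1.32), Nfkbiz (1.33), Pilra (1.36), Zc3h12a (1.40) and Ccl2 (1.46). This order depends on the pseudocount. With 0.1 in place of 1, Csf3, listed at 0 in every Control library, ranked 153rd and Ccl7 4th. Between LPS+Pilo and LPS the 10 did not move alike, as LPS+Pilo lay wholly above LPS for 1 (Cxcl2), wholly below for 2 (Ccl7 and Ccl2) and overlapped LPS for 7. Ccl7, a monocyte chemokine and the closest by this measure, had 96.1, 67.2 and 91.6 TPM in LPS+Pilo, 150, 151 and 147 TPM in LPS and 2.57, 2.14 and 1.93 TPM in Control. Its log2 fold change was -0.82 ± 0.14 for LPS+Pilo with LPS, which was not called (SE; limma, adjusted p = 0.207), where Saa3 was higher by 0.42.

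Acod1, the enzyme that makes itaconate, stood at 260, 215 and 226 TPM in LPS+Pilo, 425, 344 and 249 TPM in LPS and 30.8, 13.6 and 19.1 TPM in Control. Pilrb1 and Pilra are paired activating and inhibitory receptors of myeloid cells, and Zc3h12a encodes Regnase-1, a ribonuclease that degrades cytokine transcripts. Tnf had 159, 154 and 184 TPM in LPS+Pilo, 202, 188 and 182 TPM in LPS and 11.1, 13.1 and 11.5 TPM in Control, and the ratio of Saa3 to Tnf TPM was 1.48 to 1.80 in LPS+Pilo, 1.00 to 1.14 in LPS and 0.386 to 0.688 in Control. These ratios did not overlap between groups, but they use the values for which Saa3 was chosen, so the separation is only a description. All 10 genes, which were chosen for likeness to Saa3 over these libraries, were lowest in replicate 3 among the LPS libraries, and 7 were highest in replicate 1. Over all tested genes, 66.3% were lowest in replicate 3 and 41.1% highest in replicate 1. By Pearson r over the 9 libraries, which share the same step between treated and Control cells, the leading genes were Pilrb1 (0.998), Lcn2 (0.998), Cda (0.996), Csf3 (0.996) and Rhoc (0.996). The leading 10 by each measure had 3 genes in common.

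**Figure D4:**
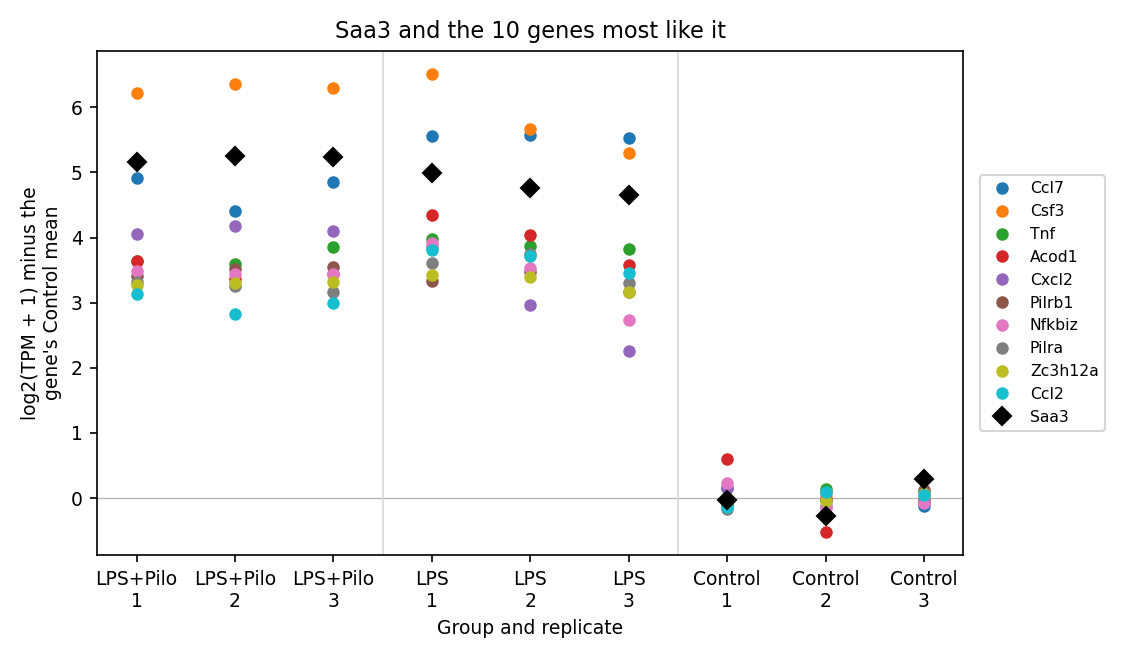
Log2(TPM + 1) minus the gene's own Control mean in each library, for Saa3 (diamonds) and the 10 genes most like it (circles). Saa3 lies at 5 or a little above in LPS+Pilo and a little below 5 in LPS, and Ccl7, the closest gene, lies below Saa3 in LPS+Pilo and above it in LPS.

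Of the 5 closest genes, Tnf, Acod1 and Cxcl2 had a RefSeq promoter window, and Ccl7 and Csf3 were not in the table. A stretch of the Cxcl2 window on GRCm38.p6, chr5:90903792-90903840 on the plus strand, is shown because it holds both matches to the stricter NF-κB motif (GGG, then 2 bases of any kind, then TTTCC), in capitals, which the Saa3 stretch printed above lacks.
Cxcl2: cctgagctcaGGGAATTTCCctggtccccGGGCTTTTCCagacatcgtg
That motif was found in 1.63% of all windows, and every match to it is also a match to the broad motif. Tnf held 3 matches to the broad NF-κB motif, 2 of them the same bases on both strands, with 2 C/EBP matches and 1 TATA match. Acod1 held 1 broad NF-κB match, 1 TATA match and no C/EBP match. Cxcl2 held 3 broad NF-κB matches and 1 C/EBP match, and Saa3, with 4, had the most C/EBP matches of the 7 windows examined. The share of all windows with as many was not computed, so this count does not set Saa3 apart.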

How the data were processed

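Per the labels' protocols, TRIzol was used for extraction and the TruSeq RNA kit for libraries. The submitters' processing notes name the build GRCm39 and the tools STAR 2.7.1a, fastp 0.19.5 and DESeq2 1.24.0. The authors deposited 1 table of TPM with 55906 genes and values to 2 decimals. The sources used here give neither the program that computed TPM nor its annotation or strand setting. TPM hold no counts, so depth is unknown, and each library sums to the same total, so a rise in some genes lowers the rest.

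Symbols came from GENCODE M21 by Ensembl identifier. A gene was kept when 3 or more of the 9 libraries reached 1 TPM (11260 genes), and log2(TPM + 1) values were fitted in limma 3.58.1 (R 4.3.3) with a variance trend, all libraries together, leaving 6 residual degrees of freedom. Tests were two-sided, with Benjamini-Hochberg adjustment over all tested genes, and an adjusted p under 0.05 made a call. Fold changes on this scale understate those of low genes. Saa3 stayed in the fit without a p-value.

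Saa3, the lists and the tests were chosen with earlier results of these data known. Genes named were a set list, up to 4 called members per list with the largest changes, and those most like Saa3; exceptions are marked. Alternatives were another pseudocount, other filters, quantile and median-ratio normalization, fits of 2 groups, no trend, a replicate block and leaving out each library. Promoters came from RefSeq GRCm38.p6 and transcripts from GENCODE M21, another build than the authors', and were used only for sequence.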

Additional observations from a re-analysis of the deposited data

How the results depend on the processing

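The log2 difference of Saa3 kept its direction under every alternative tried. Its groups did not overlap, the order for which it was chosen, so leaving out 1 library could not have reversed it. Leaving out 1 library gave 4.67 to 4.94 for LPS with Control, 0.34 to 0.51 for LPS+Pilo with LPS and 5.08 to 5.36 for LPS+Pilo with Control, and the other settings gave 4.74 to 4.99, 0.40 to 0.47 and 5.16 to 5.41. Counts of genes called moved more. In LPS with Control, where 874 genes were called, quantile normalization gave 1516 and fitting only the 2 groups compared gave 486; leaving out 1 library gave 414 to 1020, the lowest counts being 507 and 466 without LPS replicates 1 and 2 and 552 and 414 without Control replicates 2 and 3. In LPS+Pilo with LPS, where 5 were called, no filter gave 1, quantile normalization 1, median-ratio scaling 2, only the 2 groups 3 and no trend 3, and leaving out 1 library gave 0 to 6, with 0 without any 1 LPS+Pilo library or LPS replicate 3. In LPS+Pilo with Control, where 1143 were called, quantile normalization gave 1726, and leaving out 1 library gave 642 to 1286, with 735, 663 and 692 without LPS+Pilo replicates 1, 2 and 3 and 642 without Control replicate 3. The causes were not tested, beyond the smaller number of libraries in the fits of 2 groups and without 1 library.

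Libraries of the same replicate number did not deviate together: correlations were -0.23 to 0.17 over 9 same-numbered pairs, 2 of them over 0.1, and -0.37 to 0.30 over 18 other pairs. The replicate block gave 808 calls for LPS with Control, 1 for LPS+Pilo with LPS and 1064 for LPS+Pilo with Control.

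Genes were named partly for large changes with LPS or for likeness to Saa3, and some passed the filter only through treated libraries. Both favour keeping a call, so how many kept it is only a description. In LPS with Control, 35 genes were named as called, 7 of them after their values were seen. Of the 35, 25 kept the call in every alternative that tested them. Apoc2, Cebpa, Il1b, Rxra, Stat3, Slc39a14, Nfkb1, Relb, Maz and Tnfrsf1b lost it in at least 1, and Cebpb, not called, gained it without LPS replicate 3 (0.81, adjusted p = 0.0274 in limma). The small difference of Tlr4 in LPS with Control changed sign, to -0.020 under quantile normalization and -0.15 without LPS replicate 2. Without LPS replicate 3 it was 0.24. That of Il1b in LPS+Pilo with LPS, 0.20 with all libraries, became -0.087 without LPS+Pilo replicate 1. In the comparisons with LPS+Pilo the smallest differences of named genes were not followed, so changes of sign there may be missed. With a pseudocount of 0.1, 7 of the 10 genes most like Saa3 stayed among the 10, while Acod1, Ccl2 and Csf3 fell to ranks 11, 15 and 153.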
